A study of Homo sapiens with 6 samples.

Results

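Matrix metalloproteinases, the urokinase system and the TIMPs are the genes by which a cell cuts the extracellular matrix around it and limits that cutting. They were examined in DU145, an established human prostate cancer cell line. The 10 genes, taken by symbol from a table of 19727 genes, were MMP1, MMP2, MMP9, MMP13 and MMP14, PLAU and PLAUR, and TIMP1, TIMP2 and TIMP3. Each symbol was found in 1 row. The study had made stable DU145 lines by lentiviral transfer and puromycin selection, with a vector for the circular RNA circCSPP1 (lentivirus-circCSPP1) or a control vector (lentivirus-NC). Polyadenylated RNA of 3 libraries per group was sequenced, and levels were given in FPKM, a count of fragments scaled to transcript length and library total, so that genes can be compared per length. The sources used here do not say how many selected lines or clones stand behind a group, or whether its 3 libraries came from separate cultures, so the spread between libraries may be technical.

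Matrix metalloproteinases are zinc enzymes that are made as inactive proenzymes. MMP1 and MMP13 are collagenases, MMP2 and MMP9 are gelatinases, and MMP14 is anchored in the cell membrane, where it cuts collagen and activates proMMP2. PLAU encodes urokinase, a serine protease that turns plasminogen into plasmin, and PLAUR encodes the receptor that holds urokinase at the cell surface. The TIMPs bind and block the active site of metalloproteinases, and TIMP2 also bridges MMP14 to proMMP2. In prostate cancer these genes are best known for their part in invasion, which the study measured in other experiments.

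The series' title names miR-520h and EGR1, and the sequences that bear on them are shown first. The mature miRNA (22 nt, RefSeq on GRCh38.p14, plus strand of chromosome 19 from 53742566 to 53742587) is given with its seed, bases 2 to 8, in capitals.
hsa-miR-520h: aCAAAGUGcuucccuuuagagu
Counted as a match of 7 bases was either the full complement of the seed (CACTTTG) or the complement of bases 2 to 7 followed by an A (ACTTTGA), an A that does not pair with the miRNA. Such a match was found in the 3′ UTR of 1 of the 10 genes, MMP2, against 26.1% of the 19058 3′ UTRs searched in GENCODE release 29. MMP2 held 2, both in exon 13 of 13 of a 3′ UTR of 1249 nt, the one at position 516 of the first form and the one at position 260 of the second. MMP14 held a match of 6 bases, complementary to bases 2 to 7, at position 36 of 1722 nt in exon 10 of 10. The 3 sites are shown on the coding strand of GRCh38, the plus strand for both genes, with the letters of each match in capitals. They lie at chr16:55505691-55505718, chr16:55505948-55505975 and chr14:22846064-22846091.
MMP2, position 260: cctaaagagatACTTTGAtattttcaac
MMP2, position 516: gctttgtatgCACTTTGtttttttcttt
MMP14, position 36: ctaccacaaggACTTTGcctctgaaggc
The other 8 genes, TIMP2 with its 3′ UTR of 2690 nt among them, held 0 matches of 6 bases. A match is a string of letters and not a shown site.

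RefSeq promoters, from 250 bases before to 50 bases after the start, were at hand for 5 of the 10 genes, MMP14, PLAU, PLAUR, TIMP1 and TIMP3. They were searched on both strands for TGANTCA, the core that AP-1 factors bind, and for GCGGGGGCG or GCGTGGGCG, bound by EGR factors such as EGR1. The PLAUR promoter was the single one of the 5 with a match, and it held 1 of each, which do not overlap. The first letters occurred in 6.22% and the second in 7.50% of 20997 promoters of the same length. The PLAUR promoter lies at chr19:43670120-43670419 (GRCh38.p14, minus strand) and is printed 5′ to 3′ with both matches in capitals, AP-1 first.
PLAUR promoter: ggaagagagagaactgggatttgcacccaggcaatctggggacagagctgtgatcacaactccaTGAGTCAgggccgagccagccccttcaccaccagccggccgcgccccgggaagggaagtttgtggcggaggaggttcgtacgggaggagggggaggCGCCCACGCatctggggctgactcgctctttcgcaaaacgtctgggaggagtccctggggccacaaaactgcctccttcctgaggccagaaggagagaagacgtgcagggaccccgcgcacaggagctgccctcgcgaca
The AP-1 match runs from base -186 to base -180 relative to the start, and the EGR match, read on the opposite strand, from -90 to -82.

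Depth, read from the step between low values of short genes, was 28800000 to 36700000 fragments per library and overlapped between the groups. CSPP1, the parent gene of circCSPP1, measured 9.11 to 10.1 FPKM with lentivirus-NC and 14.5 to 22.8 FPKM with lentivirus-circCSPP1. In the limma test described below its log2 fold change was 0.94 with an adjusted p of 0.016. This gene-level value comes from poly(A)-selected RNA and does not separate the circle from the linear transcript or the vector. It is therefore not a measure of circCSPP1. The study itself reported that its vectors changed circCSPP1 and not CSPP1 mRNA, measured by qRT-PCR, or CSPP1 protein. All 8 epithelial markers were expressed. At an adjusted p under 0.05 in the same test, 7 of them were lower with lentivirus-circCSPP1 and 1 was higher. Of all tested genes 6.66% were lower and 4.69% higher at that threshold. The summed level of the 8 markers was 2833 to 2918 FPKM with lentivirus-NC and 1726 to 2292 FPKM with lentivirus-circCSPP1. Among the 5 with the largest differences, the cadherins CDH3 and CDH1, the keratin KRT8 and the integrin ITGB4 fell by 1.61, 1.58, 1.42 and 0.93 on the log2 scale, and the laminin chain LAMB3 rose by 0.85. Fibroblast markers summed to 1.35 to 4.44 FPKM and 8 of 9 stayed below 1 FPKM; LUM and FAP were listed at 0 in every library, and COL1A1, the highest, had a log2 fold change of -0.97 and passed the test. Leukocyte markers summed to 1.31 to 3.18 FPKM, of which CD14 held up to 2.42 FPKM, and endothelial markers, CDH5 the highest, to 0.16 to 0.69 FPKM. The part of the epithelial markers in the results below was not tested.

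Of the 10 genes, 6 were well expressed and 4 were close to 0. In each of the 6 libraries the order of the 6 expressed genes was the same: PLAU first, then MMP14, TIMP1, PLAUR, TIMP2 and MMP1. With lentivirus-NC no neighbours in this order overlapped. With lentivirus-circCSPP1 the ranges of TIMP1 and PLAUR overlapped, as did those of PLAUR and TIMP2. PLAU stood above 99.6% of all genes in both groups by its mean level, and MMP14 above 96.9% with lentivirus-NC and 97.1% with lentivirus-circCSPP1. DU145 cells thus held abundant mRNA for the membrane-bound metalloproteinase and for urokinase with its receptor, and little or none for the gelatinases.

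**Figure D1:**
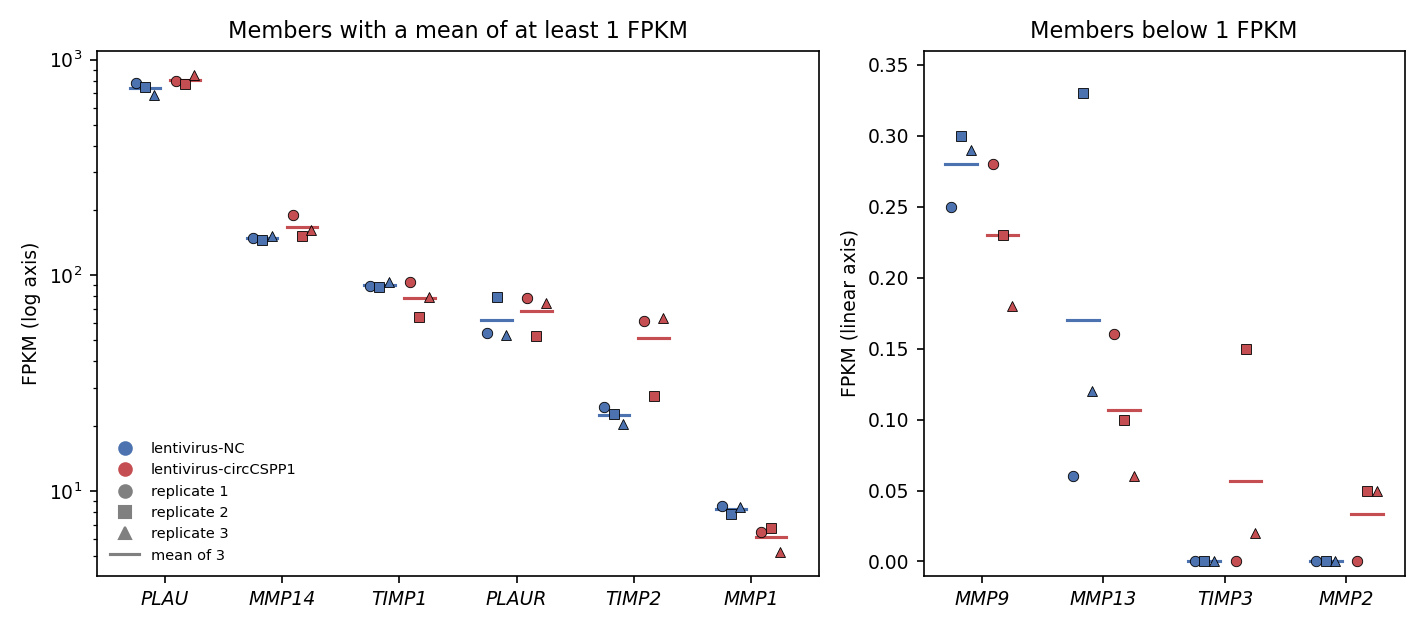
FPKM of each gene in each library, lentivirus-NC in blue and lentivirus-circCSPP1 in red, with the replicate shown by the symbol and the mean of 3 libraries by a bar; the left axis is logarithmic and the right one linear. TIMP2 and MMP1 are the 2 genes on the left whose groups do not overlap, and the 4 genes on the right stay at or below 0.33 FPKM.

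Values were tested as log2(FPKM + 1) with limma over the 12322 genes whose mean was at least 1 FPKM, with Benjamini-Hochberg adjustment over all of them. All 6 expressed genes passed this filter. None of the 6, 0 higher and 0 lower, had an adjusted p under 0.05, where 4.69% of all tested genes were called higher with lentivirus-circCSPP1, 6.66% lower and 11.4% in either direction. At an unadjusted p under 0.05 there were 2, TIMP2 and MMP1, where 28.2% of all tested genes reached that level. Without moderation of the variance there was 1, MMP1, and the standard error of TIMP2 was 0.39 in place of 0.30. The share of all tested genes at that level was not counted without moderation. TIMP2 was the single gene of the 6 with all lentivirus-circCSPP1 libraries above all lentivirus-NC libraries (16.0% of tested genes) and MMP1 the single one with all of them below (20.5%). The median log2 fold change of the 6 genes was 0.13, and that of all tested genes -0.03. A fold change on this scale understates that of weakly expressed genes, and with 3 libraries against 3 an exact permutation test of 1 gene cannot give a p below 0.10.

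Among the collagenases, MMP1 (chromosome 11 of GRCh38, 102789920 to 102798160, minus strand) was the one with a clear level. In replicates 1, 2 and 3 its level was 8.55, 7.87 and 8.44 FPKM with lentivirus-NC, against 6.49, 6.75 and 5.23 FPKM with lentivirus-circCSPP1. As deposited, every lentivirus-circCSPP1 library lay below every lentivirus-NC library. Mean levels of 8.29 ± 0.365 and 6.16 ± 0.813 FPKM (SD over the 3 libraries of a group) gave a log2 fold change of -0.38 (standard error 0.12, 95% interval -0.67 to -0.10) with an adjusted p of 0.087 in limma. The exact two-sided permutation p was 0.10, the smallest possible. Without lentivirus-circCSPP1 replicates 1, 2 or 3 the log2 fold change was -0.42, -0.44 and -0.28, with adjusted p of 0.040, 0.080 and 0.25 (limma). The departure of replicate 1 from its group rose with the GC content of the transcript (Spearman 0.784 across genes, against -0.733 and -0.482 for replicates 2 and 3). After a loess correction of GC content and length the level in lentivirus-circCSPP1 replicate 1 was 7.85 FPKM, above the 7.65 FPKM of lentivirus-NC replicate 2, so the groups overlapped, and the log2 fold change was -0.34 with an adjusted p of 0.11. MMP13, the other collagenase, measured 0.06, 0.33 and 0.12 FPKM with lentivirus-NC and 0.16, 0.10 and 0.06 FPKM with lentivirus-circCSPP1. These values overlap and correspond to about 5 to 26 fragments on the transcript.

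The gelatinases were at the limit of what these libraries can show. MMP9 measured 0.25, 0.30 and 0.29 FPKM in the lentivirus-NC libraries and 0.28, 0.23 and 0.18 FPKM in the lentivirus-circCSPP1 libraries, or about 12 to 25 fragments. MMP2 was listed at 0 in all 3 lentivirus-NC libraries and in lentivirus-circCSPP1 replicate 1, and at 0.05 FPKM in replicates 2 and 3, about 6 and 5 fragments. Neither passed the filter. With no filter on low values MMP2, MMP9, MMP13 and TIMP3 had adjusted p of 0.31, 0.45, 0.78 and 0.57 in limma, and a difference was not detectable at this depth.

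MMP14 (chromosome 14, 22836557 to 22849027, plus strand), the membrane-type enzyme, held nearly all of the metalloproteinase mRNA of the 5 genes. It measured 148, 146 and 153 FPKM with lentivirus-NC and 190, 152 and 163 FPKM with lentivirus-circCSPP1. Lentivirus-circCSPP1 replicate 1 was the highest library, and replicate 2 lay within the range of the controls, so the groups overlapped. Mean levels of 149 ± 3.52 and 168 ± 19.7 FPKM (SD over 3 libraries) gave a log2 fold change of 0.17 (standard error 0.096, 95% interval -0.06 to 0.39, adjusted p = 0.30 in limma). The same correction brought the lentivirus-circCSPP1 libraries to 173, 165 and 171 FPKM and the lentivirus-NC libraries to 145, 143 and 153 FPKM. The corrected log2 fold change was 0.21 with an adjusted p of 0.024, under a setting in which 3513 genes were called in place of 1399. The same correction with the replicate number as a block gave an adjusted p of 0.053, and without lentivirus-circCSPP1 replicate 1 the uncorrected log2 fold change was 0.08.

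PLAU (chromosome 10, 73909177 to 73917497, plus strand) was the highest of the 10 genes in every library. Its level was 782, 746 and 684 FPKM with lentivirus-NC and 793, 775 and 853 FPKM with lentivirus-circCSPP1. The lowest lentivirus-circCSPP1 library lay below the highest control. The means, 737 ± 49.8 and 807 ± 40.8 FPKM (SD over 3 libraries), gave a log2 fold change of 0.13 (standard error 0.076, 95% interval -0.05 to 0.31, adjusted p = 0.31 in limma). C10orf55 overlaps PLAU on the opposite strand and measured 5.05 to 7.03 FPKM, and the strandedness of the libraries is not given in the sources used here.

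PLAUR (chromosome 19, 43646095 to 43670547, minus strand) took 2 levels, and both occurred in both groups. Lentivirus-NC replicates 1, 2 and 3 held 53.9, 79.7 and 53.0 FPKM, while 78.6, 52.1 and 74.3 FPKM were found with lentivirus-circCSPP1. One control library therefore reached the level of the higher lentivirus-circCSPP1 libraries, and lentivirus-circCSPP1 replicate 2 was the lowest of all 6. The log2 fold change was 0.14 (standard error 0.21, 95% interval -0.34 to 0.62, adjusted p = 0.71 in limma), which leaves a wide range of differences possible. The range of PLAUR among the lentivirus-NC libraries, 0.58 on the log2 scale, was wider than that of 94.8% of tested genes. The ratio of PLAU to PLAUR was 12.3 ± 2.63 with lentivirus-NC and 12.1 ± 2.46 with lentivirus-circCSPP1 (SD, n = 3), with overlapping libraries.

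TIMP2 (chromosome 17, 78852977 to 78925387, minus strand), the inhibitor that pairs with MMP14, had the largest difference of the 10 genes. Its level in lentivirus-NC replicates 1, 2 and 3 was 24.6, 22.8 and 20.6 FPKM. The corresponding lentivirus-circCSPP1 libraries held 61.6, 27.7 and 63.7 FPKM. The 3 control libraries lay close together, replicates 1 and 3 of lentivirus-circCSPP1 were far above them, and replicate 2 was only just above. From means of 22.6 ± 2.0 and 51.0 ± 20.2 FPKM (SD over 3 libraries) came a log2 difference of 1.05 (standard error 0.30, 95% interval 0.36 to 1.74) with an adjusted p of 0.062 in limma and an exact two-sided permutation p of 0.10, the smallest possible. The range within the lentivirus-circCSPP1 libraries, 1.17 on the log2 scale, was wider than that of 97.8% of tested genes, against 72.5% for the lentivirus-NC libraries. CEP295NL, which overlaps TIMP2 on the same strand, measured 0.38 to 0.67 FPKM.

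The test of TIMP2 lay near the threshold and changed side with several settings. Without lentivirus-circCSPP1 replicate 2 the log2 fold change was 1.43 with an adjusted p of 0.0037, and without replicates 1 or 3 it was 0.87 and 0.85 with adjusted p of 0.088 and 0.18 (limma). After the correction for GC content and length the lentivirus-circCSPP1 libraries stood at 59.6, 28.7 and 65.1 FPKM, so replicate 2 remained apart, and the adjusted p was 0.031. With the replicate number as a block it was 0.046, and with block and correction together 0.039. The series' design text calls the cells paired, without saying what a number shares. Libraries of the same number deviated together only weakly, which does not decide whether they were paired. Over the 18 alternatives the log2 fold change ran from 0.85 to 1.43 and the adjusted p from 0.0037 to 0.20, under 0.05 in 4 of them. Alternatives that change only the filter, the variance or the block leave the fold change itself unchanged.

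**Figure D2:**
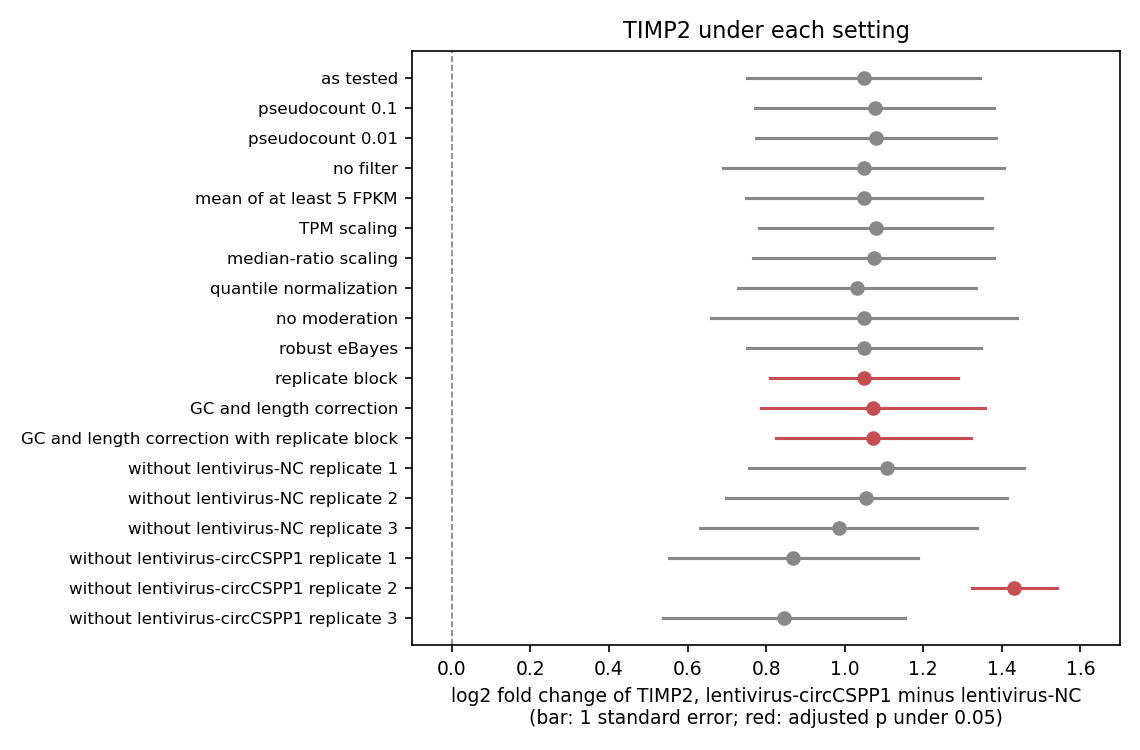
Log2 fold change of TIMP2 (horizontal axis, lentivirus-circCSPP1 minus lentivirus-NC) as tested and under each of 18 alternatives, with bars of 1 standard error and red for an adjusted p under 0.05. All values lie above 0.8, and the largest, 1.43, is the one without lentivirus-circCSPP1 replicate 2.

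TIMP1 (chromosome X, 47582313 to 47586789, plus strand) was the most abundant of the 3 inhibitors. It measured 88.9, 88.7 and 93.2 FPKM with lentivirus-NC and 93.3, 64.3 and 79.2 FPKM with lentivirus-circCSPP1. As deposited, replicate 1 of lentivirus-circCSPP1 was the highest of all 6 libraries and replicates 2 and 3 were the 2 lowest, so the groups overlapped. The log2 fold change was -0.21 (standard error 0.13, 95% interval -0.52 to 0.10, adjusted p = 0.35 in limma). Leaving out 1 lentivirus-circCSPP1 library moved it both ways, to -0.33 without replicate 1 (adjusted p = 0.042) and to -0.07 without replicate 2 (adjusted p = 0.67). After the correction for GC content and length TIMP1 stood at 85.8, 68.7 and 81.2 FPKM with lentivirus-circCSPP1. The corrected lentivirus-NC libraries, at 88.6, 87.4 and 94.1 FPKM, all lay above these. The share of all tested genes whose groups do not overlap after this correction was not counted. The corrected log2 fold change was -0.20 with an adjusted p of 0.14 in limma. TIMP3, which binds the matrix, was listed at 0 in all lentivirus-NC libraries and in lentivirus-circCSPP1 replicate 1, and at 0.15 and 0.02 FPKM in its replicates 2 and 3, about 24 and 3 fragments. In the library with 0.15 FPKM of TIMP3, PDGFRA, PDGFRB and THY1 of the fibroblast list measured 0.93, 0.71 and 0.78 FPKM, and at most 0.15, 0.36 and 0.05 FPKM in the other libraries. These 3 of the 9 markers were picked for their values. In the same library COL1A1 was at 1.11 FPKM, between the 1.36 and 0.99 FPKM of lentivirus-circCSPP1 replicates 1 and 3. All lentivirus-circCSPP1 libraries lay below the 2.60 to 4.06 FPKM of the lentivirus-NC libraries. LUM and FAP were at 0 there, as in every library. The part of these traces in the TIMP3 value was not tested.

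**Figure D3:**
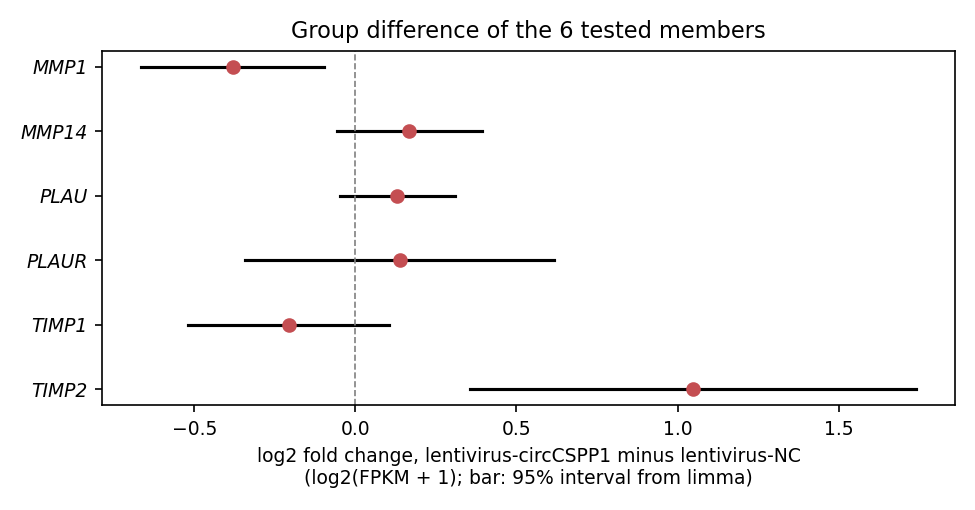
Log2 fold change of the 6 tested genes (points, lentivirus-circCSPP1 minus lentivirus-NC, on log2(FPKM + 1)) with the 95% interval from limma. The intervals use the moderated variance and are unadjusted. Those of TIMP2, 0.36 to 1.74, and of MMP1, -0.67 to -0.10, do not reach 0, and the other 4 do. Without moderation TIMP2 did not reach an unadjusted p under 0.05.

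Ratios of inhibitor mRNA to enzyme mRNA were also read within each library. Protein and enzyme activity were not measured in these data. The ratio of TIMP2 to MMP14 was 0.166, 0.156 and 0.135 in the lentivirus-NC libraries and 0.324, 0.183 and 0.391 in the lentivirus-circCSPP1 libraries, without overlap (exact two-sided permutation p = 0.10, the smallest possible). TIMP2 over TIMP1 was 0.251 ± 0.0283 with lentivirus-NC and 0.632 ± 0.188 with lentivirus-circCSPP1 (SD, n = 3), again without overlap (exact permutation p = 0.10). These ratios carry the same TIMP2 values as above. The 3 TIMPs together, relative to the 5 metalloproteinases together, overlapped between the groups. That ratio was 0.721, 0.722 and 0.704 with lentivirus-NC and 0.787, 0.580 and 0.849 with lentivirus-circCSPP1.

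Among the other metalloproteinases, 6 of 18 were tested and 1 was called, lower. MMP24, a membrane-type enzyme, fell from 12.4 ± 0.265 to 4.76 ± 0.860 FPKM (SD over 3 libraries), which is -1.23 as log2 fold change (adjusted p = 0.0037 in limma). MMP3 and MMP10, which are stromelysins, and MMP7, a matrilysin, were at or below 0.26 FPKM in every library. Of the other plasminogen activation genes 9 of 18 were tested, and 3 fell. ANXA2 and S100A10, whose proteins form a plasminogen-binding complex at the cell surface, had log2 fold changes of -0.33 and -0.63 (adjusted p = 0.033 and 0.025), and SERPINE2, a serpin that inhibits urokinase, one of -0.68 (adjusted p = 0.013, limma). PLAT, the tissue-type activator, had a log2 fold change of -0.71 with an adjusted p of 0.066.

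Other inhibitors and partners were called in both directions. Of 10 further genes listed as metalloproteinase inhibitors 5 were tested. TFPI2, a serine protease inhibitor placed in this list, rose from 9.80 ± 2.48 to 19.3 ± 2.38 FPKM (SD, n = 3, log2 fold change 0.93, adjusted p = 0.018 in limma). TIMP4 measured 0.80 to 1.42 FPKM, with a log2 fold change of -0.03 (adjusted p = 0.92), and RECK, a membrane-anchored inhibitor, one of -0.32 (adjusted p = 0.088). Of 14 activators and membrane partners 13 were tested, 2 higher and 1 lower. CLDN1, a tight junction protein, and LCN2, which binds MMP9, had log2 fold changes of 0.72 and 0.59 (adjusted p = 0.0068 and 0.045), and the integrin chain ITGB3 one of -1.16 (adjusted p = 0.0040). BSG, an inducer of metalloproteinases, measured 596 to 685 FPKM with a log2 fold change of 0.06 (adjusted p = 0.67).

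In the lists of other proteases and their inhibitors 8 calls were lower and 1 was higher. The list of type II transmembrane serine proteases and inhibitors also held other serine proteases, PRSS22 and PRSS23 among them. Of its 18 genes 8 were tested and 2 fell, SPINT1 (log2 fold change -1.10), an inhibitor of matriptase, and TMPRSS6 (-0.50). Of 28 ADAM and ADAMTS genes 10 were tested, 1 higher and 4 lower. ADAM17, the sheddase of TNF, had a log2 fold change of 0.45, and ADAM19, ADAMTS7, ADAMTS15 and ADAM9 of -1.02, -0.70, -0.60 and -0.55. Of 23 cathepsins and cystatins 14 were tested, and CTSV (-0.45) and CTSH (-0.39) fell. The adjusted p of these 9 genes ran from 0.0038 to 0.042 in limma. Over the 7 lists, 17 of the 64 tested genes were called (26.6%), 4 higher and 13 lower, beside the 11.4% called among all tested genes, of which 578 were higher and 821 lower. The lists were chosen with earlier results of these data known, so the 2 shares are a description and not a test. Leaving out 1 library moved the 17 calls to between 5 and 32. The lists' medians ran from -0.40 for the ADAM and ADAMTS genes to 0.01 for the activators and partners.

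**Figure D4:**
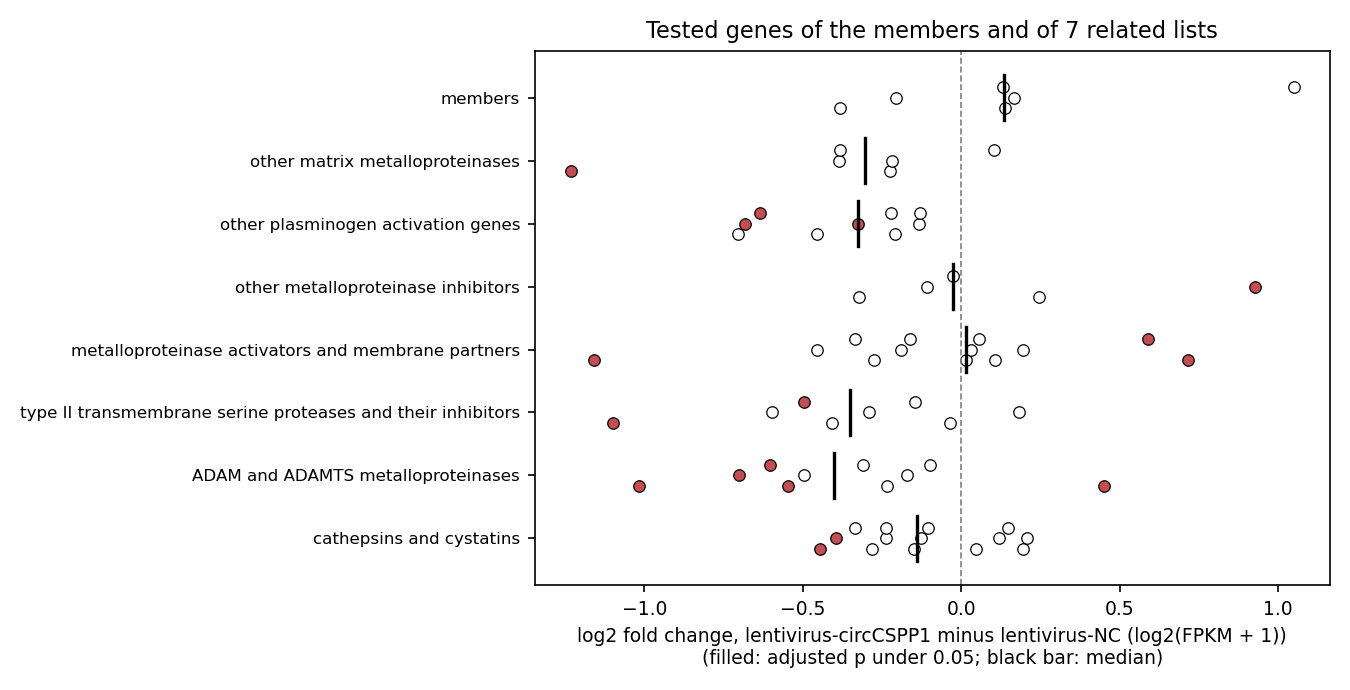
Log2 fold change (horizontal axis, lentivirus-circCSPP1 minus lentivirus-NC) of each tested gene of the 10 genes ("members") and of 7 related lists, with filled points for an adjusted p under 0.05 and a black bar at the median. No point of the first row is filled, while 13 genes of the lists are called lower and 4 higher.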

How the data were processed

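The data were 6 RNA-seq libraries of DU145 cells. Per the labels, RNA was poly(A)-selected and sequenced paired-end on an Illumina NovaSeq, and the submitters' processing notes name hg38. The aligner, counter and annotation are not given in the sources used here. The authors deposited FPKM values rounded to 2 decimals; the number of sample columns not used was 0. FPKM is relative to the library total, and the 20 highest genes held 12.0% to 12.1% of it with lentivirus-circCSPP1 and 14.9% to 15.2% with lentivirus-NC.

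log2(FPKM + 1) was fitted with limma 3.58.1 in R 4.3.3 (trended eBayes, two-sided test, group as the single term) on the 12322 genes averaging 1 FPKM or more over the 6 libraries, leaving 7405 untested. The scripts were tested on simulated data. Depth was estimated from single-transcript genes under 800 nt with a tolerance of 0.15 of a step, and fragments per gene from the longest protein-coding transcript in GENCODE release 29. No interval was computed for the depth. 3′ UTRs came from the principal transcript. AP-1 and EGR letters were searched in RefSeq promoters. Alternatives were pseudocounts of 0.1 and 0.01, no filter or 5 FPKM, TPM, median-ratio and quantile scaling, no moderation, robust eBayes, the replicate block, a loess correction (span 0.5) for GC content and length, both together, and leaving out each library.

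The genes and lists were chosen with earlier results of these data known. Named were the 10 genes, up to 5 called genes per list (otherwise its highest), and PLAT, MMP3, MMP7, MMP10, TIMP4, RECK and BSG; a further gene of this rule is not reported here. Genes most like a called member were to be named, but no member was called. LRP1 and HPN stand in 2 lists each. Figures were drawn with matplotlib 3.10.9.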

Additional observations from a re-analysis of the deposited data

How the results depend on the processing

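The direction of all 6 tested genes was the same under each of the 18 alternatives. Under several of these it could not differ. No filter, the 5 FPKM filter, no moderation, robust eBayes and the replicate block leave the fold change as it is. The block likewise leaves the fold change of the GC and length correction as it is. The number of them called was 0 as tested, 1 (TIMP2) with the replicate block, 2 (TIMP2 and MMP14) with the GC and length correction and 1 (TIMP2) with both; leaving out 1 library gave 0 to 2. PLAU and PLAUR were called under none. All genes called numbered 1399 as tested, 834 without moderation, 923 with the replicate block, 3513 with the GC and length correction (1818 higher and 1695 lower, against 578 and 821), and 2721 with both. Leaving out 1 library gave 300 to 3512: 300, 317 and 407 without lentivirus-NC replicates 1, 2 and 3, and 3512, 1160 and 450 without lentivirus-circCSPP1 replicates 1, 2 and 3. Called genes of the 7 related lists numbered 17 as tested, 8 without moderation, 11 with no filter, 11 with the replicate block, 28 with the GC and length correction, 25 with both, and 5 to 32 when 1 library was left out (5, 5 and 7 without lentivirus-NC replicates 1, 2 and 3; 32, 12 and 6 without lentivirus-circCSPP1 replicates 1, 2 and 3). The cause of these shifts was not tested. Libraries with the same replicate number deviated together only weakly (correlations across genes of 0.0734, 0.00653 and 0.0572). For lentivirus-NC replicates 1 and 3 the best match was the lentivirus-circCSPP1 library of the same number, and for replicate 2 it was replicate 3. These values do not decide whether the cells were paired. The series' design text calls them paired, but no source says what a shared number stands for. Rounding to 0.01 FPKM and the depth limit MMP2, MMP9, MMP13 and TIMP3, at 0 to 26 fragments per library.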
